A study of Mus musculus with 8 samples.

Results

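The genes described here encode parts of the motile cilium and a few markers of the cells that carry it. They were chosen by name: protein-coding genes whose symbols begin with Cfap, Dnah, Dnai, Rsph, Drc or Tekt and a number, together with Foxj1, Tmem212, Ccdc153, Dynlrb2 and Rarres2. In all 67 of 54532 listed genes met this rule, and the 51 that averaged 0.5 FPKM or more across the 8 libraries are described (FPKM, fragments per kilobase scaled to the library size, is a level per length). The 51 comprise 29 of 31 Cfap genes, 3 of 15 Dnah genes, 7 of 8 Rsph genes, all 3 Drc genes, 4 of 5 Tekt genes and the 5 genes given by name. No gene was listed under a Dnai symbol.

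RNA came from tissue labelled substantia nigra, the midbrain region whose dopamine neurons degenerate in Parkinson's disease, of male C57BL/6 mice. There were 4 groups with 2 libraries each. The control group is titled WT. The vector group received an adeno-associated virus carrying α-synuclein (AAV-α-synuclein), the AKG group received α-ketoglutarate, a TCA cycle metabolite (dietary, by the series title), and the combined group received both. The labels give no age, promoter or dose, and leave unstated whether mice of the control and AKG groups received an empty vector. They do not say either whether the libraries of a group came from separate animals, so p-values measure only the spread between these samples, which may be technical.

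Motile cilia in the brain are carried mainly by ependymal cells, which line the ventricles and the aqueduct and move cerebrospinal fluid. The beating axoneme is built of doublet microtubules with outer and inner dynein arms, radial spokes and the nexin-dynein regulatory complex, and its genes are switched on together by the forkhead factor Foxj1 and by RFX factors. Choroid plexus epithelium, which makes Ttr (transthyretin, the thyroxine carrier of cerebrospinal fluid), borders the ependyma within the ventricles. The substantia nigra itself contains neither epithelium.

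RFX factors bind the X-box, an imperfect inverted repeat, so the bases just upstream of the start site are shown for members with and without one. Upstream sequence was found for 54 of the 67 members in RefSeq (GRCm38.p6), all but Cfap157, Cfap299, Cfap53, Cfap54, Cfap65, Cfap73, Cfap97, Dnah3, Foxj1, Rarres2, Rsph1, Rsph10b and Rsph4a. The 250 bases before each start were searched on both strands. The X-box stood in 7 of the 54 (13%) and in 1.49% of all 27025 genes of the same table. Its holders were Cfap298, Cfap44, Cfap45, Cfap58, Cfap99, Dynlrb2 and Tekt2. The last 120 upstream bases are given 5′ to 3′, with the X-box in capitals, for Dynlrb2 (chr8:116504895-116505014, plus strand), Cfap44 (chr16:44394679-44394798, plus strand) and Tekt2 (chr4:126325689-126325808, minus strand). Tmem212 (chr3:27896369-27896488, minus strand) and Drc7 (chr8:95054983-95055102, plus strand), on which later results turn, had no match.
Dynlrb2: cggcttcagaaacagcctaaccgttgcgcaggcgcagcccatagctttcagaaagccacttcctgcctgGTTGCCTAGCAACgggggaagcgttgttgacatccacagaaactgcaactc
Cfap44: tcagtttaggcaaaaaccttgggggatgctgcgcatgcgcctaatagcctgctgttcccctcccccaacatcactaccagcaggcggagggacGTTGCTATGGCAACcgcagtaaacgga
Tekt2: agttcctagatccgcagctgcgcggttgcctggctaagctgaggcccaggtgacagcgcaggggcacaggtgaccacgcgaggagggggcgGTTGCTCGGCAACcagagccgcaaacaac
Tmem212: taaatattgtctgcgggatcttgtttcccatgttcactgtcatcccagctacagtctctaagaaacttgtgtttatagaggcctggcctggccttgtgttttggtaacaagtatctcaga
Drc7: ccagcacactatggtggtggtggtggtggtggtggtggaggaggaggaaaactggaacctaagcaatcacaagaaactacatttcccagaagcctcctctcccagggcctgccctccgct
In Dynlrb2 the repeat lay 51 to 39 bases before the RefSeq start site, in Cfap44 27 to 14 and in Tekt2 29 to 17 before the start shown. Another RefSeq start of Tekt2 had it 71 to 59 bases upstream, and a further one had no match. A gene counted as a holder if any of its starts had a match. The shorter motif GTTGCC, which can be the first part of an X-box and was found together with one in 5 members, stood in 18 of 54 members (33.3%) and in 11.8% of all genes. The forkhead motif GTAAACA stood in 4 of 54 members (7.41%: Cfap20, Cfap43, Dnah17 and Tekt3) and in 3.54% of all genes. These matches describe letters in a window and do not show binding.

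The libraries held 16544190.0 to 19125423 reads assigned to genes, and for a 1 kb gene a single read equals 0.0515 to 0.0590 FPKM. Control library 1 stood apart: its mean Spearman correlation with the other libraries over all tested genes was 0.937, against 0.973 to 0.976 for the other 7. Hbb-bs, a beta-globin gene, was at 5.53 FPKM in it and at 85.2 to 212 in the others, and Gfap, an astrocyte filament gene, was at 157 FPKM against 39.8 to 75.7. Slc1a2, an astrocyte glutamate transporter gene, was in contrast lowest in it, at 42.5 FPKM against 66.3 to 104. Some dopamine neuron transcripts, which mark the labelled region, were high in both control libraries. Th, which encodes tyrosine hydroxylase, was at 38.8 FPKM in each and at 10.4 to 16.6 in the other 6. Slc6a3, the dopamine transporter, was at 24.1 and 28.5 FPKM in the controls and at 0.615 to 11.9 in the other 6. Others of the list were not: Ret, a receptor gene of these neurons, was at 4.62 FPKM in control library 1, its lowest, against 7.86 to 12.6 elsewhere. Results that rest on control library 1 are therefore given with and without it.

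All 5 genes given by name were highest in control library 1, at 2.58 to 4.62 times the median of the other 7. Foxj1, the master regulator of motile ciliogenesis, was at 42.4 and 15.5 FPKM in the control libraries, 17.0 and 14.9 in the vector libraries, 14.7 and 18.4 in the AKG libraries and 13.2 and 15.1 in the combined libraries. Tmem212, a membrane protein gene used as an ependymal marker, was at 48.5 and 9.57 FPKM in the control libraries, 13.9 and 10.9 with the vector, 9.02 and 18.1 with AKG and 10.5 and 6.79 with both. In both genes control library 1 was the highest of 8, while control library 2 lay within the range of the treated libraries. Ccdc153, a coiled-coil axonemal protein gene, was at 40.1 FPKM in control library 1, against 5.93 to 13.3 in the others, and the lowest of these was combined library 2. Dynlrb2, a roadblock-type dynein light chain gene, was at 35.4 FPKM in control library 1, against 8.55 to 13.8 elsewhere. Rarres2, which encodes the chemoattractant chemerin and is not itself a ciliary gene, was at 15.5 FPKM in control library 1, against 4.77 to 7.55 elsewhere. Of the Rarres2 exon bases, 33.6% overlap Lrrc61 on the other strand, and since no source used here gives the strand setting, reads of this pair cannot be told apart.

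**Figure D1:**
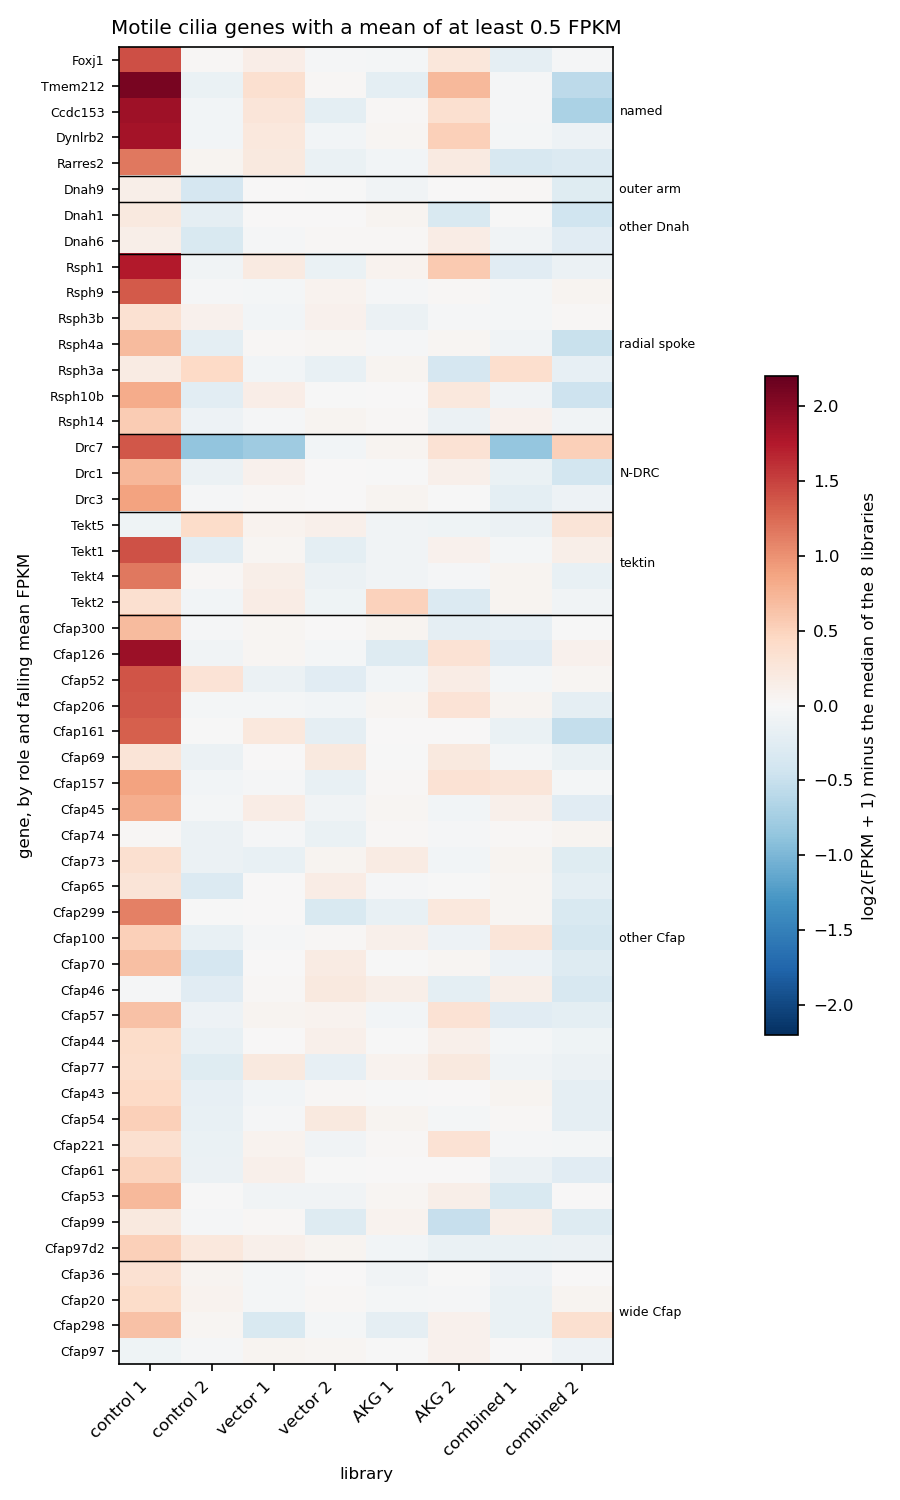
Levels of the 51 described genes by library, as log2(FPKM + 1) minus the gene's median over the 8 libraries (colour, red higher and blue lower); rows are ordered by role and falling mean, columns are libraries. Control library 1 is the highest of 8 for 44 genes, and combined library 2 is the lowest for 19.

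Control library 1 was the highest of the 8 for 44 of the 51 genes, which was the case for 31.2% of the 15710 tested genes. It exceeded the median of the other 7 libraries by more than 2-fold for 25 of 51 (49.0%), against a background of 6.17%. The median ratio was 1.97 (range 0.873 to 4.62), and over all tested genes it was 0.993. Of the 51, only Rsph14 owes its place to this library: it was at 1.13 FPKM there and at 0.333 to 0.547 in the other 7, whose mean is below 0.5. In bulk tissue, more cells of a type and more RNA per cell cannot be told apart.

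The dynein heavy chains, the large motor subunits of the arms, were low and were little higher in control library 1 than elsewhere. Dnah9, an outer arm chain, was at 0.909 and 0.355 FPKM in the control libraries, 0.764 and 0.739 with the vector, 0.664 and 0.766 with AKG and 0.784 and 0.459 with both. Control library 2 and combined library 2 were its lowest. Dnah1, an inner arm chain, was at 2.83 and 1.87 FPKM in the controls, against 1.44 to 2.46 with treatment, and Dnah6, another inner arm chain, was at 1.29 and 0.645, against 0.751 to 1.33. The ratio of control library 1 to the median of the other 7 was 1.23 for Dnah9, 1.24 for Dnah1 and 1.22 for Dnah6. The 1313 tested genes of 10 kb and over, the length of these genes, had a median ratio of 0.670. Genes for axonemal dynein intermediate chains were listed under the older symbols Dnaic1 and Dnaic2, outside the rule and chosen after their values were seen. Dnaic1 was at 6.21 FPKM in control library 1, against 2.57 to 3.90 elsewhere, and Dnaic2 at 4.96 and 1.92 to 2.64.

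Radial spokes, which relay signals from the central pair to the dynein arms, were represented by 7 genes, 6 of them highest in control library 1. Rsph1, a spoke head gene, was at 42.0 and 11.2 FPKM in the control libraries, 13.8 and 10.7 with the vector, 12.6 and 18.2 with AKG and 9.86 and 10.8 with both. Rsph9, another spoke head gene, was at 34.2 FPKM in control library 1, against 12.3 to 13.5 in the remaining 7. Its level outside control library 1 therefore varied little, while Rsph1 also stood out in AKG library 2. Rsph3b, a spoke stalk gene, ranged only from 4.01 to 5.90 FPKM. Its near copy Rsph3a was highest in control library 2 (5.63 FPKM) and lowest in AKG library 2 (2.80). How the counting divided reads between these copies is stated in no source used here, so their values are uncertain.

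The nexin-dynein regulatory complex holds neighbouring doublets together and controls dynein. Its gene Drc7 had the largest coefficient of variation of the described genes over the libraries other than control library 1 (47.6%). Drc7 was at 15.6 and 2.53 FPKM in the control libraries, 2.74 and 5.20 with the vector, 5.72 and 7.05 with AKG and 2.60 and 8.25 with both. Control library 2, vector library 1 and combined library 1 were the lowest, at 2.53 to 2.74 FPKM, and the groups overlapped. Drc1 was at 9.05 FPKM in control library 1, against 3.58 to 5.54 in the others, and Drc3 was at 7.32 and 2.90 to 3.72. Their lowest values were in combined libraries 2 and 1 respectively.

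Tektins, filament proteins inside the doublet microtubules, were split. Tekt1 was at 14.5 FPKM in control library 1, against 4.02 to 5.41 in the other 7, and Tekt4 at 8.28 and 2.70 to 3.54. Tekt5, known mainly from sperm flagella, was at 9.11 and 13.2 FPKM in the control libraries, 10.4 and 10.7 with the vector, 9.19 and 9.15 with AKG and 8.83 and 12.2 with both. It had the lowest ratio of all 51 genes, 0.873, and was highest in control library 2. Of 10 sperm and testis genes used for comparison, 3 reached the minimum, and 1 of the 3 was highest in control library 1.

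Among the other Cfap genes, 23 of 25 were highest in control library 1. Cfap126 (Flattop, which positions basal bodies) was at 19.6 FPKM there and at 3.61 to 5.99 elsewhere, a ratio of 4.41. Cfap300, a dynein arm assembly gene, was at 10.4 FPKM and 5.12 to 6.38. Cfap52, a microtubule inner protein gene, was at 7.43 and 2.98 FPKM in the control libraries, 1.96 and 1.70 with the vector, 2.11 and 2.62 with AKG and 2.13 and 2.31 with both, so both controls lay above all 6 treated libraries. The 4 Cfap genes that most tissues express had ratios of 0.913 to 1.70, overlapping those of the 25 (0.947 to 4.41). Cfap36 was the most abundant member (41.8 and 34.3 FPKM in the control libraries and 30.5 to 33.3 in the other 6), Cfap20 ranged from 8.21 to 12.5 and Cfap97 from 5.82 to 6.89. Cfap298, a dynein assembly gene, was at 14.1 FPKM in control library 1, against 6.65 to 11.3 elsewhere, but 44.2% of its exon bases overlap Gm49727 on the other strand.

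Around the minimum, Rsph14 (mean 0.52 FPKM), Cfap97d2 (0.64) and Cfap99 (0.65) lay just inside, and Dnah7b (0.48), Dnah5 (0.47) and Dnah7a (0.46) just outside. Dnah7a, Dnah7b and Dnah7c are near copies whose reads the counting could have divided. All 16 members below the minimum were listed with reads in at least 1 library; Cfap97d1 was the lowest, with at most 2 reads in any.

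The excess in control library 1 was larger for shorter genes. Over the 51 genes the ratio to the other libraries and the gene length had a Spearman rho of -0.53, as a description across genes that share libraries. All tested genes tilted the same way in this library, with a rho of -0.467 between length and deviation, so each length class was set beside its own background. Below 2 kb the median ratio was 2.71 for 14 members and 1.27 for all 3656 tested genes of that length. From 2 to 5 kb it was 2.21 for 24 members and 1.06 for 6304 tested genes, and from 5 kb it was 1.32 for 13 members and 0.809 for 5750 tested genes. Members were thus above the median of tested genes of like length in every class. Short genes exceeded long ones in both sets, but the medians fell from 2.71 to 1.32 among members and from 1.27 to 0.809 among tested genes. Whether the 2 falls differ was not tested.

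**Figure D2:**
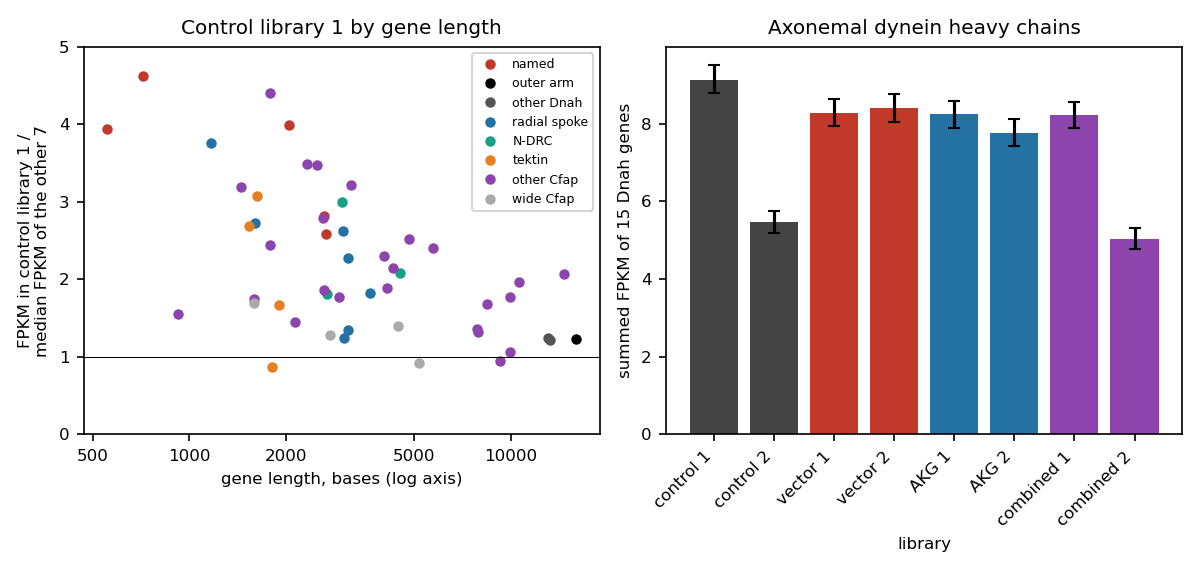
Left: ratio of the FPKM in control library 1 to the median of the other 7 libraries, by gene length (log axis), 1 point per described gene coloured by role; the line marks a ratio of 1. Right: summed FPKM of all 15 Dnah genes in each library, with 95% Poisson intervals of the summed reads, which cover counting error only; control library 2 (5.46) and combined library 2 (5.04) lie below the other 6 (7.76 to 9.13).

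The 15 Dnah genes showed another pattern, noticed after their values were seen. Their summed level was 9.13 and 5.46 FPKM in the control libraries, 8.28 and 8.40 with the vector, 8.24 and 7.76 with AKG and 8.21 and 5.04 with both. The 2 low libraries rest on 1432 and 1287 reads (95% exact Poisson intervals 5.18 to 5.75 and 4.77 to 5.32 FPKM). These intervals cover counting error only, and libraries of a group varied far beyond it, since chi-square over genes, divided by its degrees of freedom, was 11.3 to 71.2. Dnah12, an inner arm chain, was at 0.163 FPKM in control library 2, 0.149 in combined library 2 and 0.429 to 0.516 in the other 6. Control library 2 and combined library 2 were both below the other 6 libraries for 12 of the 51 described genes (23.5%), for 19 of all 67 members and for 2.22% of all tested genes. The share was 2.44% of the tested genes of at least 10 kb and 4.07% of those with a mean under 3 FPKM. Besides Dnah6 and Dnah9 the 12 included Cfap43 and Cfap44, which tether inner arm dyneins, the central apparatus genes Cfap46 and Cfap54, and the spoke gene Rsph4a. All tested genes of at least 10 kb had a median of 0.899 and 0.935 of their 8-library median in these libraries, and the 15 Dnah genes had 0.677 and 0.629. The 2 libraries belong to different groups, and what else they share was not tested.

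Gene lists of other ventricle cells were also highest in control library 1. Of all tested genes, 31.2% were highest in it, and their median ratio was 0.993. Of 94 tested motile cilia genes outside the rule, 87 were highest in it, with a median ratio of 2.36. They included Tppp3, a tubulin-binding protein gene (146 FPKM against 73.9 to 89.9), and Morn2 (29.7 against 13.9 to 21.1). All 8 tested ependyma markers that are not ciliary were highest there, with a median ratio of 2.39; Vim, the vimentin gene, was at 38.3 FPKM against 14.1 to 16.3, so the other 7 differed little. Choroid plexus epithelium genes had a median ratio of 3.77 (29 of 31 highest), and of 7 genes of tanycytes and the subcommissural organ 5 were highest. Col25a1, the most abundant of these 7, was instead lowest in it (4.89 FPKM against 7.20 to 9.64), as was Nes (1.73 against 1.75 to 2.29). Intraflagellar transport and BBSome genes, which primary cilia also need, had a median ratio of 1.24 (25 of 42 highest). Regulators of multiciliation had a median ratio of 0.999, with 3 of 8 tested genes highest, both near the values of all tested genes. The 3 were Rfx2 (1.56 FPKM against 0.620 to 0.965), Trp73 (1.36 against 0.462 to 1.19) and Deup1 (1.14 against 0.674 to 0.945). E2f4, the most abundant of the list, was instead lowest in control library 1 (7.01 FPKM against 7.37 to 9.47). Gmnc, which starts the multiciliation program, was below the minimum, at 0.866 FPKM in control library 1 and 0.104 to 0.359 elsewhere. Also below the minimum and highest there were Ccno (0.831 against 0.242 to 0.551) and Myb (0.603 against 0.125 to 0.364). Mcidas, likewise below it, was lowest there (0.0653 against 0.0684 to 0.260), and Cdc20b (0.113 against 0 to 0.296) lay within the range. Astrocyte genes had a median ratio of 1.14 (6 of 10 highest), mural cell and fibroblast genes 1.52 (7 of 12) and dopamine neuron genes 1.64 (8 of 17). Lower in control library 1 were hemoglobin genes (median ratio 0.0665, 0 of 5 highest), thalamus and midbrain excitatory neuron genes (0.327, 1 of 9) and forebrain excitatory neuron genes (0.831, 0 of 8). Whether the piece of tissue taken differed between libraries was not tested.

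**Figure D3:**
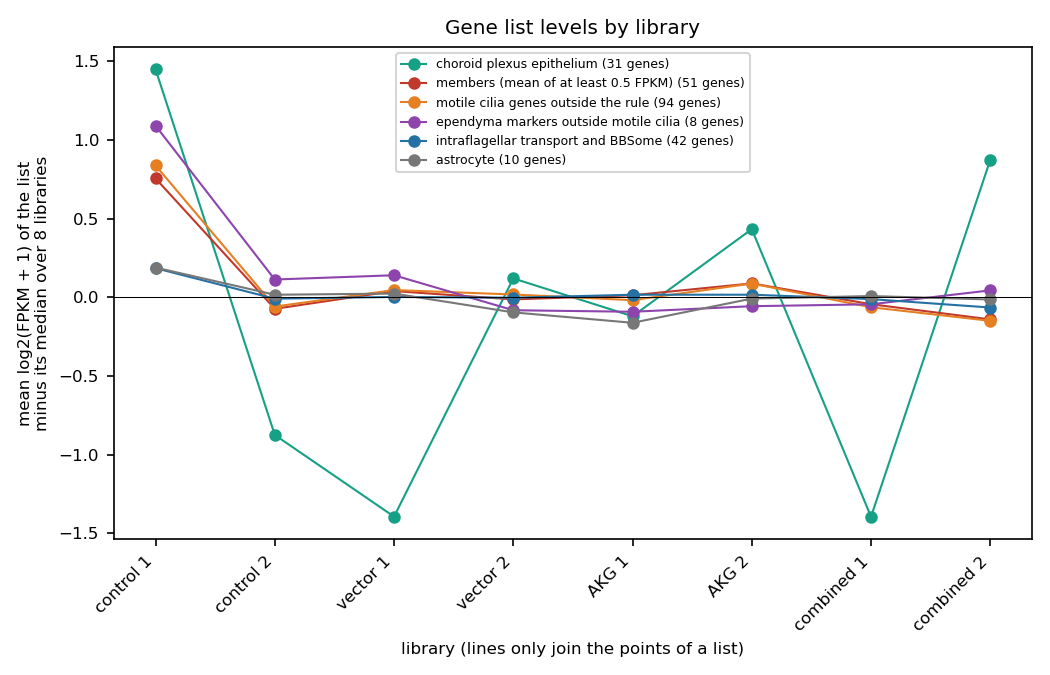
Mean log2(FPKM + 1) of 6 gene lists in each library, minus the list's median over the 8 libraries (lines only join the points of a list). The 51 members and the other motile cilia genes stand up in control library 1 alone, whereas choroid plexus genes also differ widely among the other 7 libraries.

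No described gene passed the test in any comparison between groups (limma on log2(FPKM + 1), Benjamini-Hochberg adjustment over all 15710 tested genes, threshold 0.05). A fold on this scale understates the change of low genes. In the vector group against control, which asks what the α-synuclein vector does, 45 of the 51 means were lower and 6 higher, with a median log2 difference of -0.22 (-0.01 over all tested genes). The Foxj1 mean was 28.9 FPKM in control, from libraries at 42.4 and 15.5, and 15.9 ± 1.48 (SD, n = 2) with the vector. Its log2 difference was -0.66 ± 0.40 (SE, limma adjusted p = 0.40). Cfap52 had the smallest adjusted p of the 51, with -1.03 ± 0.31 (limma adjusted p = 0.32), and Tmem212 had -0.78 ± 0.68 (adjusted p = 0.53). Over all genes 0 passed (0.0%), 2428 had an unadjusted p under 0.05, and 0 were called by voom run on recovered reads. The 2 groups did not overlap for 8 lower and 2 higher members, against 26.2% and 25.5% of tested genes. Without control library 1 the balance turned, with 36 means higher and 15 lower and a median of 0.09, and Foxj1 was at 0.04. Without control library 2 it steepened to -0.57, and 22 members passed, all lower, where 8.38% of tested genes did so; Foxj1 was then at -1.36 (limma adjusted p = 0.0091) with the lone control assumed to vary like the other groups.

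In the AKG group against control, 42 of the 51 means were lower and 9 higher, with a median log2 difference of -0.25 (-0.01 over all tested genes). The smallest adjusted p was that of Cfap97d2, with -0.48 ± 0.15 (limma adjusted p = 0.29), followed by Cfap52 with -0.79 ± 0.31 (adjusted p = 0.30). Foxj1 had -0.61 ± 0.40 (adjusted p = 0.44). Of all those tested 1 gene passed, Th (0.00637%), and voom called 1. The groups did not overlap for 7 lower and 1 higher member (backgrounds 25.2% and 24.9%). Without control library 1 the means were higher for 39 members and lower for 12, with a median of 0.17 and Foxj1 at 0.09. Without control library 2, 23 members passed, all lower (background 8.18%), and Foxj1 was at -1.31.

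In the combined group against control, 47 of the 51 means were lower and 4 higher, with a median log2 difference of -0.36 (-0.01 over all tested genes). Tmem212 was at 29.0 ± 27.5 FPKM (SD, n = 2) in control and 8.64 ± 2.62 in the combined group, a log2 difference of -1.27 ± 0.68 (limma adjusted p = 0.42). Ccdc153 had -1.27 ± 0.58 (adjusted p = 0.39), Rarres2 -0.94 ± 0.33 (adjusted p = 0.38) and Foxj1 -0.82 ± 0.40 (adjusted p = 0.40). Limma called 0 of all tested genes (0.0%), 2048 had an unadjusted p under 0.05, and voom called 0. The groups did not overlap for 13 lower members, among them Foxj1, Rsph1 and Rarres2, and for 0 higher ones (backgrounds 19.9% and 20.8%). Without control library 1, 30 means were lower and 21 higher, with a median of -0.02, and Rarres2 was at -0.39, Ccdc153 at -0.31, Tmem212 at -0.16 and Foxj1 at -0.12. Without control library 2, 27 members passed, all lower (background 6.79%), and the 4 differences were -1.49, -2.23, -2.39 and -1.52 in the same order.

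Comparisons without the control libraries showed smaller differences in the same direction. The combined group against the vector group, which asks what AKG adds to the vector, had 42 means lower and 9 higher, with a median log2 difference of -0.11 (near 0 over all tested genes). Rsph4a was at 4.17 and 4.20 FPKM in the vector and at 3.81 and 2.60 in the combined libraries, and Foxj1 differed by -0.16 ± 0.40 (limma adjusted p = 1). The groups did not overlap for 16 lower and 2 higher members, Cfap52 and Cfap74, a central apparatus gene; the backgrounds were 12.2% and 13.1%. The combined group against the AKG group again had 42 lower and 9 higher means, with a median of -0.10 (near 0 over all tested genes), and 18 lower members and 1 higher did not overlap (backgrounds 12.3% and 11.8%). Rarres2 had -0.39 ± 0.33 and Ccdc153 -0.55 ± 0.58 in that comparison (both limma adjusted p = 1). Limma and voom called 0 of all tested genes in both comparisons (0.0%), with 246 and 215 at an unadjusted p under 0.05 in limma. The 3 groups involved share libraries between the comparisons, and without combined library 2 the higher means numbered 18 and 17 of 51. The median against the vector group was -0.16 without combined library 1 and -0.06 without combined library 2. Against the AKG group it was -0.21 without combined library 1 and -0.08 without combined library 2. It was -0.16 without AKG library 1 and -0.10 without AKG library 2.

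The interaction, the difference of the AKG effect with and without the vector, was 0.22 at the median of the 51 genes (0.01 over all tested genes), with 33 values above 0 and 18 below. Limma and voom called 0 of all tested genes (0.0%), and 1088 had an unadjusted p under 0.05 in limma. Without control library 1 the median was -0.23, and without control library 2 it was 0.41, with 8 members passing, all above 0 (background 2.29%). Its sign thus differed with the control library left out. It was 0.10 without combined library 1 and 0.12 without vector library 2.

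Ttr itself varied far more than any described gene. It was at 8778 and 435 FPKM in the control libraries, 44.0 and 1959 with the vector, 1334 and 2466 with AKG and 53.4 and 4857 with both, so each of 3 groups held libraries that differed by several-fold or more. Vector library 1 and combined library 1 were the lowest, and all groups overlapped. Outside control library 1 the highest Ttr was 110 times the lowest, whereas Foxj1 ranged from 13.2 to 18.4 FPKM and Rsph9 from 12.3 to 13.5.

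**Figure D4:**
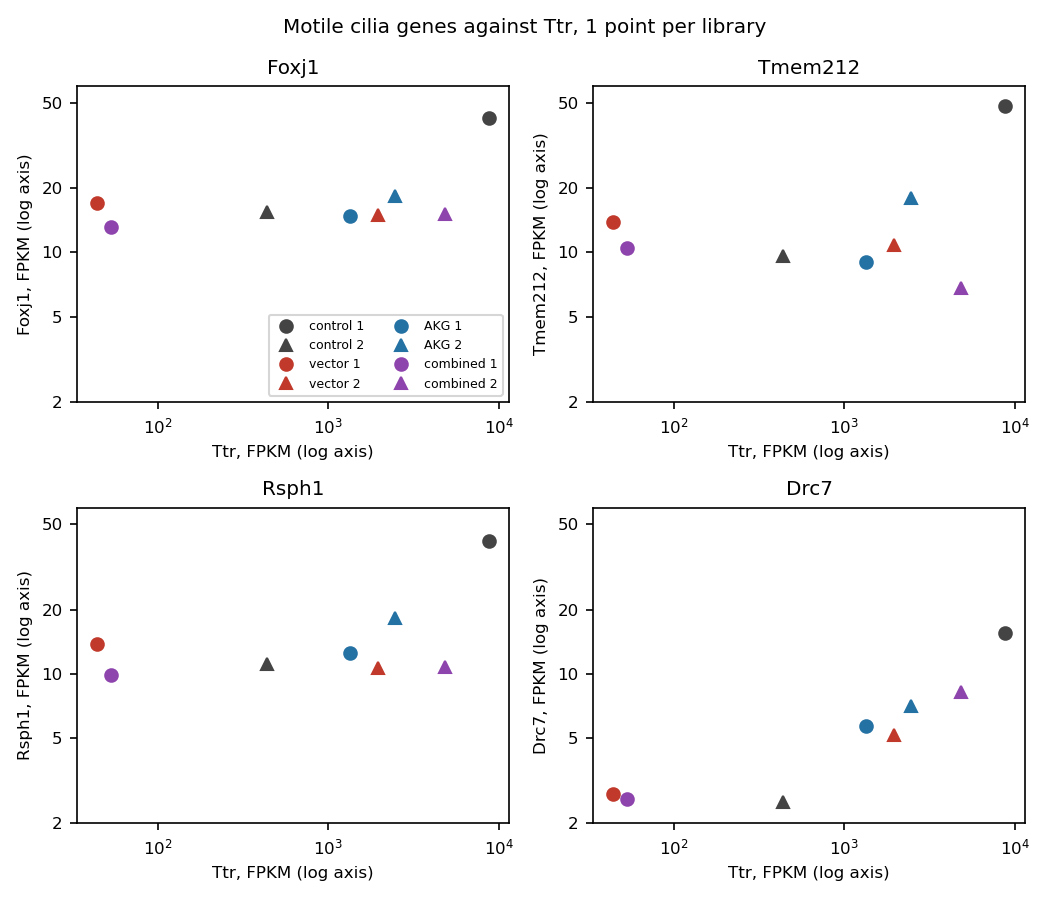
FPKM of Foxj1, Tmem212, Rsph1 and Drc7 against FPKM of Ttr (both log axes), 1 point per library (colour: group, circle: replicate 1, triangle: replicate 2). Foxj1, Tmem212 and Rsph1 are highest in control library 1 (42.4, 48.5 and 42.0 FPKM). Elsewhere they range from 13.2 to 18.4, 6.79 to 18.1 and 9.86 to 18.2 FPKM, in the same order. Drc7 is lowest (2.53 to 2.74 FPKM) in the 3 libraries with the least Ttr.

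Over the 8 libraries, Pearson's r between a member and Ttr (both as log2(FPKM + 1)) was positive for 43 of 51 genes, with a median of 0.32 and a range of -0.47 to 0.89; the median over all 15709 other tested genes was -0.03. No gene of the table passed in an exact permutation test over all pairings after adjustment over those genes (0.0%). At an unadjusted p under 0.05 were 992 genes (6.31%), among them 3 members. The smallest p that 8 libraries allow, 2.48e-05, leaves little room over so many genes, and 30 other choroid plexus genes, with a median r of 0.94, did not pass either. Without control library 1 the relation of the cilia genes did not hold: 23 of 51 were positive, the median was -0.08 and the range -0.91 to 0.89 (2 positive and 2 negative members at an unadjusted p under 0.05, background 4.0%), while the choroid plexus genes kept a median of 0.95. Without vector library 1 and combined library 1, the 2 farthest from the median of Ttr, 47 of 51 were positive with a median of 0.56, and this set still held control library 1.

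Foxj1 had r = 0.51 and rho = 0.43 with Ttr over 8 libraries (exact permutation p = 0.225 and 0.299, both adjusted p 0.66) and r = 0.21 without control library 1. Rsph1 went from 0.50 to 0.17, Tmem212 from 0.32 to -0.26 and Ccdc153 from 0.26 to -0.47. Tekt4 had r = 0.28 over 8 libraries and -0.91 over 7 (exact permutation p = 0.0058, adjusted p 0.71). The genes with the lowest r were Cfap97 (-0.47), Rsph3a (-0.39), Cfap99 (-0.34), Cfap46 (-0.32) and Dnah1 (-0.15).

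Drc7 had the highest Pearson's r with Ttr of the 51, over 8 libraries and over 7. It had r = 0.89 and rho = 0.88 over 8 libraries (exact permutation p = 0.0017 and 0.0072, adjusted p 0.40 and 0.34), r = 0.89 without control library 1 (exact permutation p = 0.0083, adjusted p 0.80) and r = 0.97 without the libraries farthest from the median of Ttr. By r it ranked 77 among 15709 genes over 8 libraries and 97 over 7, and in each of the 4 groups the library with more Ttr had more Drc7. Next were Cfap298 (r = 0.79 over 8 and 0.74 over 7), Cfap53, a gene needed for left-right asymmetry (0.71 and 0.72), Cfap20 (0.66 and 0.60) and Cfap36 (0.60 and 0.47). With the group means removed, r was 0.91 for Cfap298 and 0.87 for Drc7 (exact permutation p = 0.125 for each, the smallest that 4 groups allow). Among the 5 libraries other than control library 1, vector library 1 and combined library 1, which are too few for a correlation, Cfap20 and Cfap36 did not rise with Ttr. In order of rising Ttr, Cfap20 was at 9.76, 8.93, 9.34, 8.99 and 9.59 FPKM, and Drc7 was at 2.53, 5.72, 5.20, 7.05 and 8.25. Cfap53 was at 0.586, 0.647, 0.521, 0.749 and 0.624 FPKM in the same order, without a steady rise. It had only 14 to 33 reads in each library other than control library 1, the fewest in combined library 1. Rsph9 had r = 0.54 over 8 libraries and 0.82 over 7, and it had the highest rho of the 51, 0.93 over 8 libraries (exact permutation p = 0.0022, adjusted p 0.20). Outside control library 1, however, Rsph9 varied little, from 356 to 386 reads per library. Whether its order among those libraries exceeded counting error was not tested. Between the libraries of each group, 8 of the 51 genes moved the way Ttr did in 4 of 4 groups (15.7%, background 7.45%), namely Drc7, Cfap298, Cfap53, Cfap20, Cfap36, Rsph3b, Rsph9 and Cfap57. All 30 choroid plexus genes did so. With the control group left out it was the same 8 of 51 genes (15.7%), but the background rose to 10.6%. The count takes in moves of any size. In combined libraries 1 and 2, Drc7 was at 2.60 and 8.25 FPKM. Cfap57 was at 0.717 and 0.751 FPKM there (56 and 54 reads), and Rsph9 at 12.4 and 13.3 FPKM (386 and 382 reads). None of these relations passed after adjustment.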

How the data were processed

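RNA-seq values of 8 libraries were used. The labels' protocols name a column kit for RNA extraction and a SMARTer kit for the mRNA libraries. The submitters' processing notes name GRCm38 and mm10; no source used here gives the aligner, counter or strand setting. The authors deposited 1 table of FPKM per gene and library, with gene lengths and coordinates, per the file headers. Multiplied by gene length, 100% of nonzero values were within 0.01 read of a whole multiple of 1 step, so reads could be recovered, 16544190.0 to 19125423 per library.

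The 15710 genes averaging 0.5 FPKM or more were tested on log2(FPKM + 1) with limma 3.58.1 in R 4.3.3 (4 group means over 8 libraries, eBayes with a trend, two-sided, Benjamini-Hochberg, 0.05). Residual degrees of freedom were 4, with 2.95 added by the median prior. Deviations of same-numbered libraries correlated at -0.284 to 0.271 between groups, so the numbers were not taken to pair samples. The relation to Ttr used Pearson's r and Spearman's rho with exact permutation over all pairings, adjusted over 15709 genes. Poisson intervals are exact and cover counting error only. Each script that tests across genes was checked on simulated data. Exon overlaps came from GENCODE M21, where 62 of 67 members had the same coordinates; 27 of 67 members share exon bases with another gene, 7 of them over 10%.

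Named are the 5 genes of the rule, the 3 most abundant described members of each role, the widely expressed Cfap genes, the 5 highest and 5 lowest by r with Ttr, any called member, the 3 on either side of the minimum, the leading genes of the comparison lists, Ttr, Th and Slc6a3. Others (such as Hbb-bs, Gfap, Rsph4a, Rsph10b, Cfap43, Cfap44, Cfap54, Cfap74, Dnah12, Dnaic1, Dnaic2 and Rsph9 in its rank correlation) were chosen after their values were seen. Members, lists and tests were chosen with earlier results of these data known. Alternatives were another minimum, no filter, a pseudocount of 0.1, quantile and median-of-ratios scaling, the replicate block, no trend, only the groups compared, protein-coding genes only, removal of a length trend (spline with 5 degrees of freedom), and leaving out each library. Added after the data were seen were voom, run on recovered reads, and both further settings of the Ttr relation without control library 1. Python 3.11.15, pandas 2.3.3, numpy 2.4.6, scipy 1.17.1 and matplotlib 3.10.9 were used.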

Additional observations from a re-analysis of the deposited data

Results flagged for a closer look

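The effect of AKG ran in opposite directions without and with the vector in 2 of the 51 genes (3.92%), with no overlap between the libraries compared in either setting. Cfap97, a widely expressed axonemal protein gene, was at 5.91 and 6.24 FPKM in the control and 6.35 and 6.89 in the AKG libraries, but at 6.70 and 6.67 with the vector alone and at 6.48 and 5.82 with both. Its interaction was -0.21 on the log2 scale (limma adjusted p = 0.60). Cfap52 was lower with AKG alone (2.11 and 2.62 FPKM against 7.43 and 2.98) and higher in the combined than in the vector libraries (2.13 and 2.31 against 1.96 and 1.70), with an interaction of 0.98 (limma adjusted p = 0.57). Neither interaction passed the test. The same opposite, non-overlapping pattern was found in 887 of the 15710 tested genes (5.65%), so it was no more frequent among the members.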

How the results depend on the processing

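Between groups, no member was called under any alternative except without control library 2. Leaving out each library in turn, the count of all genes called ranged from 0 to 3199 for the vector group against control, 0 to 3247 for AKG against control, 0 to 2807 for combined against control and 0 to 1119 for the interaction, the highest always without control library 2; it stayed at 0 to 0 for combined against vector and against AKG. With no filter on low values 5, 12, 4, 6 and 14 genes were called in the vector, AKG and combined comparisons with control and the combined comparisons with vector and with AKG. A pseudocount of 0.1 gave 2 for AKG and 1 for combined against control. For AKG against control 0 were called under quantile scaling, the replicate block, no trend, only the groups compared and with the length trend removed. The replicate block gave 0 in every comparison, from 1 in AKG against control. Of 265 alternative values for 14 member differences, 251 kept direction and call, 10 were newly called, all without control library 2, and 4 reversed, all without control library 1. Over libraries left out, the reversed ones ranged from -1.36 to 0.037 (Foxj1, vector), -1.90 to 0.33 (Tmem212, vector), -1.78 to 0.45 (Drc7, vector) and -1.31 to 0.086 (Foxj1, AKG). The relation to Ttr gave 16 called genes by rank correlation and 25 with a pseudocount of 0.1, no member among them, and 0 otherwise. The listed quasi-likelihood count test was not run, since the deposited unit is FPKM. Depth leaves members such as Cfap97d1, with at most 2 reads in any library, without a usable comparison. The cause of these shifts was not tested.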
